A study of Mus musculus with 4 samples.

Results

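The Ikaros family is a set of 5 zinc-finger transcription factors, Ikzf1 to Ikzf5, and their transcripts are described here in mouse regulatory T cells. The members were taken by gene symbol, and all 5 were found among the 50600 genes of the count tables. RNA was sequenced from 4 biosamples labelled as regulatory T primary cells of the C57BL/6NJ strain, helper-type lymphocytes that hold other immune cells in check under the control of the factor Foxp3. The 4 libraries form a single group with no treatment, genotype or other cell type set against it, the sex was not collected, the age is given as unknown, and all carry 1 donor record. The names of the aligned files in the headers hold the words activated and 48h, and the labels link a CD4+ T cell differentiation protocol whose content was not used here, so the cells may have been cultured. The labels do not tie the biosamples to separate animals or cultures, so p-values reflect no more than how far these samples differ, which may be technical.

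Ikaros proteins bind DNA through zinc fingers in their first part and pair with each other through fingers near their end. They recruit chromatin remodelling and histone deacetylase complexes, and depending on the site they repress or activate genes of lymphocyte development. Ikzf1 encodes Ikaros, Ikzf2 Helios, Ikzf3 Aiolos, Ikzf4 Eos and Ikzf5 Pegasus. In mouse regulatory T cells Helios is known for stable lineage identity, and Eos as a partner of Foxp3 in gene silencing.

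The family likeness is visible in the second zinc finger of the first cluster, which is shown because in human cells this finger of Ikaros and Aiolos is the one that thalidomide-type drugs bring to the ligase receptor cereblon. The coding DNA of 63 bases, 21 codons from the first cysteine to the last histidine, was read from the GENCODE M21 transcripts of GRCm38, the build called mm10. Capitals mark the 20 positions at which the 4 sequences are not all alike.
Ikzf1: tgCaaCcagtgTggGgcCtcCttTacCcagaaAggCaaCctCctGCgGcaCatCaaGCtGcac
Ikzf2: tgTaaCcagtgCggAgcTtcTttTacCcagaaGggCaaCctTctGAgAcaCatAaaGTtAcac
Ikzf3: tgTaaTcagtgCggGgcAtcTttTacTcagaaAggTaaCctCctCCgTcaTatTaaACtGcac
Ikzf4: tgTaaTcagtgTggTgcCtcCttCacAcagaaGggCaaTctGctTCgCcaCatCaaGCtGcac
They lie in coding exons at chr11:11754024-11754086 on the plus strand for Ikzf1, and on the minus strand at chr1:69570581-69570643 for Ikzf2, chr11:98488940-98489002 for Ikzf3 and chr10:128640229-128640291 for Ikzf4. Ikzf2 and Ikzf3 each differed from Ikzf1 at 12 bases and Ikzf4 at 10, yet the encoded residues were the same in all 4. Ikzf5 stood apart, since each of its 5 finger patterns differed from this finger of Ikzf1 at 32 to 38 bases and 15 or 16 residues. In the transcript with the longest coding sequence of each gene, the finger pattern occurred 6 times in Ikzf1, Ikzf2 and Ikzf3 and 5 times in Ikzf4 and Ikzf5. The search used a set spacing of cysteines and histidines. A finger spaced otherwise would be missed, so these are counts of the pattern and not of all fingers. No run longer than 32 identical bases was shared by the transcripts of any pair of members, and no stretch of 50 bases occurred in more than 1 member.

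All 5 members were expressed, meaning a level of at least 1 TPM in all 4 libraries. So were 10274 protein-coding genes, while 21732 genes had a coding transcript. TPM, a transcript abundance per length, is the count divided by the gene's summed exon length and scaled to the library, and errors are SDs over the 4 libraries (n = 4). The family together held 533.5, 515.6, 504.6 and 512.7 TPM in replicates 1 to 4, or 517 ± 12.2 TPM. Ikaros transcripts made up 68.6 ± 1.28% of that sum, Eos 20.2 ± 1.16%, Aiolos 4.47 ± 0.112%, Pegasus 4.27 ± 0.130% and Helios 2.55 ± 0.354%.

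Ikzf1 (ENSMUSG00000018654.17, chr11:11685003-11772926, plus strand), the founding member and a regulator of all lymphoid lineages, was the most abundant. Its level was 358.5, 359.2, 341.8 and 356.9 TPM in replicates 1 to 4, from 26155, 35781, 42751 and 31065 counts. Replicate 3 lay below the other 3, which were within a few TPM of each other. At 354 ± 8.2 TPM it exceeded 95.6% of the 10274 expressed protein-coding genes, whose median was 33.7 TPM.

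Ikzf4 (ENSMUSG00000002578.16, chr10:128632415-128645993, minus strand) encodes Eos and came next. It measured 113.0, 96.2, 105.8 and 101.5 TPM in replicates 1 to 4, from 5109, 5939, 8196 and 5472 counts. Replicate 1 was highest and replicate 2 lowest, and the mean of 104 ± 7.09 TPM stood above 80.4% of the expressed coding genes.

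Ikzf3 (ENSMUSG00000018168.8, chr11:98464902-98546031, minus strand) encodes Aiolos, best known from B cells and also present in activated T cells. Its levels were 23.3, 23.9, 22.5 and 22.7 TPM, from 2577, 3602, 4266 and 2992 counts, in replicates 1 to 4. The libraries were close together, at 23.1 ± 0.618 TPM, above 39.2% of the expressed coding genes.

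Ikzf5 (ENSMUSG00000040167.16, chr7:131388652-131410521, minus strand) encodes Pegasus, the most divergent member, which binds a different DNA site. It was measured at 23.6, 22.3, 21.2 and 21.2 TPM in replicates 1 to 4, from 1707, 2196, 2626 and 1826 counts. Replicate 1 was highest and replicates 3 and 4 lowest, with a mean of 22.1 ± 1.15 TPM.

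Ikzf2 (ENSMUSG00000025997.13, chr1:69531214-69687245, minus strand) encodes Helios, which marks many regulatory T cells that arise in the thymus, and was the lowest of the family. Replicates 1 to 4 held 15.1, 14.0, 13.3 and 10.4 TPM, from 2212, 2798, 3333 and 1823 counts. Replicate 4 was below the other 3, and the highest library exceeded it by a factor of 1.45. The mean of 13.2 ± 1.99 TPM was above only 26.4% of the expressed coding genes. In bulk RNA, fewer cells that express Helios and less Helios RNA per cell cannot be told apart.

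**Figure D1:**
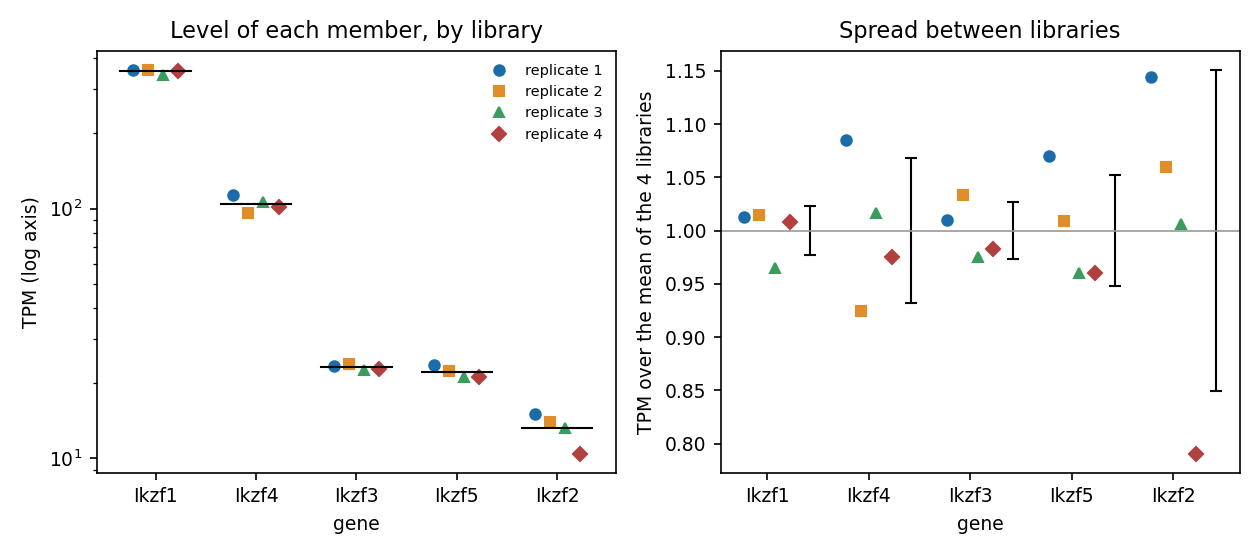
The left panel plots the TPM of each Ikaros family member in each of the 4 libraries on a log axis, with a line at the mean, and the right panel plots the same values over the member's mean with bars of 1 SD. Ikzf1 is near 354 TPM and Ikzf4 near 104, Ikzf3 and Ikzf5 overlap near 23 and 22, and Ikzf2 is lowest and has the widest spread because replicate 4 lies at 10.4 TPM.

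The order of levels was thus Ikzf1, Ikzf4, Ikzf3, Ikzf5, Ikzf2, and each neighbouring pair was compared within libraries as the difference of log2(TPM + 1). Ikzf1 exceeded Ikzf4 by 1.76 ± 0.108 and Ikzf4 exceeded Ikzf3 by 2.12 ± 0.114 on that scale. Ikzf5 exceeded Ikzf2 by 0.71 ± 0.165. In these 3 pairs all 4 libraries had the same order and the ranges did not overlap, with p = 0.12 in the two-sided exact sign-flip permutation test (n = 4; 0.167 after Benjamini-Hochberg adjustment over the 4 pairs). That is the smallest p that the 16 sign patterns of 4 libraries allow, so no pair could pass 0.05. The ranges of Ikzf3 and Ikzf5 overlapped when the summed exon length divided the counts. Their difference was then 0.06 ± 0.055, Ikzf3 was the higher in 3 of 4 libraries, and the same exact permutation test gave p = 0.25.

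Part of this order depended on the length that divided the counts. The summed exons of Ikzf2 span 11613 bases, of which 13.7% are coding, while its transcript with the longest coding sequence has 2483 bases. The counts came from all exons whichever length divided them, and 9130 exon bases of Ikzf2 lie outside that transcript. Fragments from those bases would make the level of Ikzf2 by that length too high. With that transcript's length in each gene, Ikzf2 stood at 42.1 ± 6.41 TPM, and Ikzf3 at 37.8 ± 1.03 and Ikzf5 at 19.5 ± 1.06 TPM. Helios was then above Pegasus in all 4 libraries, the difference of Ikzf5 minus Ikzf2 turning to -1.06 ± 0.176 (exact permutation p = 0.12), and its range overlapped that of Aiolos. The coding transcript of Ikzf2 with the most counted bases has 9278, and with such lengths Ikzf2 was again lowest at 11.8 ± 1.80 TPM. Aiolos, whose only coding transcript has 3658 of the 8754 exon bases, exceeded Pegasus 1.94-fold (± 0.0760) under both transcript lengths, with ranges that did not overlap. Ikzf1 and Ikzf4 were first and second under all of these lengths. Gene counts do not tell which transcripts were present, so the place of Helios below the other members is not settled by them.

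**Figure D2:**
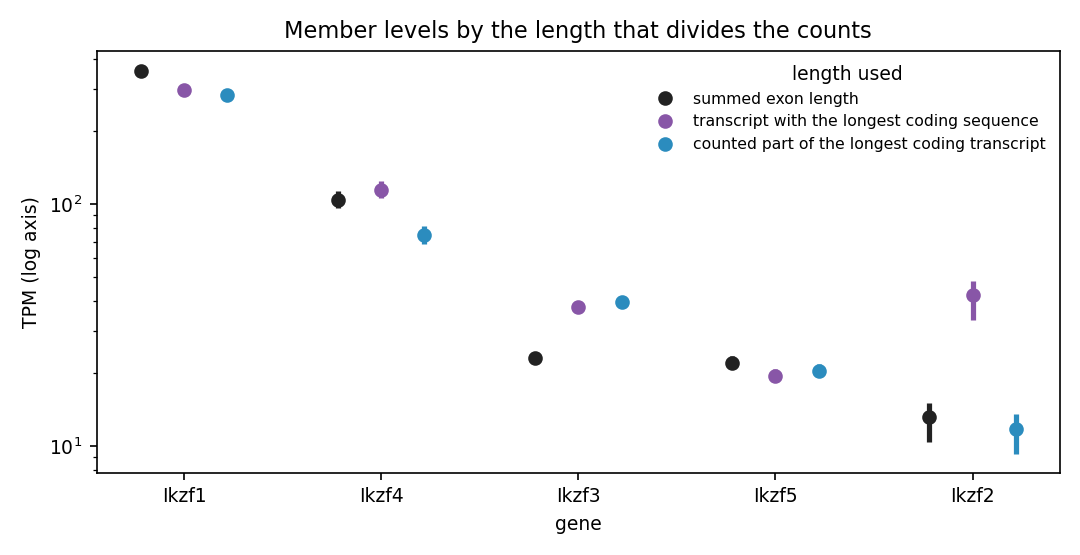
Mean TPM of the 5 members on a log axis, with bars over the range of the 4 libraries. The same counts over all exons were divided by 3 choices of gene length. Ikzf1 and Ikzf4 keep the first and second place, while Ikzf2 lies at 13.2, 42.1 or 11.8 TPM depending on the length and Ikzf3 at 23.1, 37.8 or 39.5 TPM.

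Between libraries, Ikaros and Aiolos transcripts had a low coefficient of variation in TPM, 2.33% for Ikzf1 and 2.68% for Ikzf3, against a median of 6.52% over the 11593 expressed genes. Only 6.46% of expressed genes varied less than Ikzf1 and 9.25% less than Ikzf3. Pegasus varied by 5.22% and Eos by 6.81%, near the median, whereas Helios varied by 15.1%, more than 84.0% of expressed genes. Counting error alone would give 2.02% for Helios and 0.550% for Ikaros. In edgeR's biological coefficient of variation, which is drawn towards genes of like abundance, Ikzf1 was mid-range at 0.0721, against a median of 0.0734 over the 12917 genes tested. On that measure Ikzf3 was at 0.0540 and Ikzf2 at 0.0855. The share of Helios in the family sum was 2.83, 2.71 and 2.63% in replicates 1, 2 and 3 and 2.03% in replicate 4. Without replicate 4, Helios stood at 14.1 ± 0.919 TPM (n = 3).

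Each library was also set against the other 3 with edgeR's quasi-likelihood test over 12917 genes, a comparison of libraries and not of conditions. At an adjusted p below 0.05, 0 of 5 members were called in any library, where the share of all genes called was 0.0697% for replicate 1, 0% for replicate 2, 0.0232% for replicate 3 and 0% for replicate 4. DESeq2 called 0 members in the 18 tests of 20 for which it gave an adjusted p, and gave none for Ikzf2 and Ikzf5 in replicate 2. At an unadjusted p below 0.05 the 20 tests of members gave 3 calls, 2 in replicate 1, 0 in replicates 2 and 3 and 1 in replicate 4. DESeq2 gave 1 such call, Ikzf2 in replicate 4, and in replicate 1 its unadjusted p was 0.0685 for Ikzf2 and 0.0753 for Ikzf4. Replicates 1 to 4 had 9.31, 6.78, 2.31 and 2.49% of all genes at that level.

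Helios in replicate 4 gave the clearest of these differences. It stood at 35.1 CPM, counts scaled to the library total, against 50.5, 47.7 and 45.2 CPM in replicates 1 to 3, so replicate 4 was lowest. The log2 difference was -0.44 (SE 0.108), with an unadjusted p = 0.000807 that ranked 1 of the 12917 genes for that library, and an adjusted p of 1 in edgeR. It therefore did not pass the test across all genes. Foxp3 was highest in the same library, at 320.4 TPM in replicate 4 against 293.5, 269.9 and 272.2 TPM in replicates 1 to 3. The markers of B, CD8 and NK, myeloid, stromal and epithelial cells are given below with their range over libraries, and their part in this difference was not tested.

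The other unadjusted calls were small. In replicate 1 Ikzf2 was 0.26 (SE 0.116) and Ikzf4 0.15 (SE 0.0740) above the other libraries on the log2 scale, with adjusted p = 0.486 and 0.533 in edgeR. The value of Ikzf2 rested in part on replicate 4, since without it the difference was 0.14 (SE 0.0951, unadjusted p = 0.145 in edgeR). Ikzf1 differed by between -0.06 and 0.03, Ikzf3 by between -0.04 and 0.07 and Ikzf5 by between -0.08 and 0.13 over the 4 libraries.

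**Figure D3:**
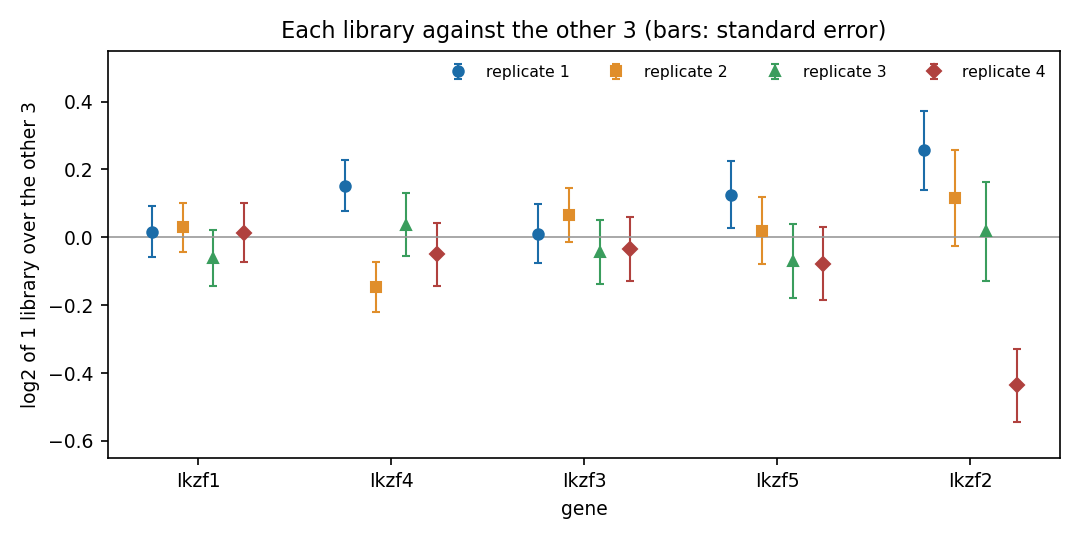
For each Ikaros family member, the log2 difference of 1 library over the other 3 from edgeR, with bars of 1 standard error. Points lie within 0.26 of 0 except Ikzf2 in replicate 4, at -0.44.

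The surroundings of the 5 genes differed in activity. Beside Ikzf4, at 5668 bases, Rps26, a protein of the small ribosomal subunit, reached 1060 ± 42.1 TPM, and Fignl1, a DNA repair ATPase 14505 bases from Ikzf1, reached 80.6 ± 2.27 TPM. Grb7, a signalling adaptor, and Zpbp2, known from sperm, flank Ikzf3 and were at 1.16 ± 0.373 and 0.392 ± 0.196 TPM. The nearest genes on both sides of Ikzf2, Gm29113 and Gm37930, had 0 counts, as did 4930512M02Rik on the left of Ikzf1. No member shared exon bases with a gene on its own strand. Ikzf2, Ikzf4 and Ikzf5 shared 144, 37 and 4835 exon bases with genes on the opposite strand, which the stranded counting keeps apart.

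Ikzf5 has the most crowded surroundings. Its exons overlap those of Pstk, a kinase of selenocysteine tRNA on the opposite strand, over 4652 bases, and Pstk stood at 6.79 ± 0.598 TPM. On its other side Acadsb, an acyl-CoA dehydrogenase of isoleucine breakdown, starts 80 bases away and is read in the opposite direction, at 10.7 ± 0.848 TPM. The 79 bases between the starts, at chr7:131410522-131410600, are shown on the minus strand, 5′ to 3′ towards Ikzf5, from the RefSeq promoter table of GRCm38.p6, because both genes are transcribed away from them.
Ikzf5 to Acadsb: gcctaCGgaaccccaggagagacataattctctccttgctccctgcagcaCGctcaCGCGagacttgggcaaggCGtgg
Capitals mark the 5 CG pairs, the dinucleotide at which vertebrate DNA is methylated, and 60.8% of the bases were G or C. The median over the 32851 whole promoter windows of the table was 52.7%. This stretch is only part of such a window, so the values are not like for like. The level of Ikzf5 is uncertain for another reason. Of its 5818 stretches of 50 bases, 750 (12.9%) also occur in the processed pseudogene Gm10356 (chr3:47050382-47051639), so a fragment wholly inside them would align to more than 1 place and not be counted. Gm10356 itself had 6, 3, 13 and 3 counts in replicates 1 to 4. For Ikzf4, 33 of 6229 such stretches (0.53%) occur in other genes, and for Ikzf1, Ikzf2 and Ikzf3 0 do.

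The protein partners through which Ikaros factors act were nearly all expressed, and the median of the family itself was 23.1 TPM. For scale, 10274 coding genes were expressed, while 21732 genes had a coding transcript. All 13 subunits of NuRD, the nucleosome remodelling and deacetylase complex that Ikaros binds, were expressed, with a median of 173 TPM. Rbbp7, a histone-binding subunit, was at 540 ± 24.2 TPM and Chd4, the remodelling ATPase, at 422 ± 26.0 TPM, while Mta3 was lowest at 41.6 ± 1.80 TPM. All 11 subunits of BAF, another remodelling complex, were expressed with a median of 99.5 TPM, from Smarca4 at 200.3 ± 16.5 and Smarcc1 at 153 ± 5.13 TPM to Smarca2 at 10.4 ± 0.575 TPM. Of the ATPases of BAF, transcripts of Smarca4 were thus far above those of Smarca2.

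Among the CtBP and Sin3 corepressors 7 of 8 genes were expressed, with a median of 58.0 TPM. Ctbp1, which Eos recruits in mouse regulatory T cells, measured 195 ± 5.01 TPM and the demethylase Kdm1a 119 ± 3.43 TPM. The paralogue Ctbp2 was at 0.318, 0.382, 0.416 and 0.331 TPM in replicates 1 to 4, near 0 in every library. Its annotation shares 5.05% of its exon bases with Fgfr2 on the same strand, where fragments are not counted.

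Enzymes that modify Ikaros proteins were expressed throughout, and so was the cereblon ligase, to which thalidomide-type drugs bring Ikaros and Aiolos in human cells. Whether that ligase acts on Ikaros proteins in these mouse cells was not tested. Casein kinase 2 phosphorylates Ikaros and protein phosphatase 1 reverses it, and all 6 genes of this pair were expressed, from Ppp1ca at 1427 ± 63.3 and Csnk2b at 283 ± 13.2 TPM to Csnk2a2 at 42.9 ± 0.870 TPM. All 5 genes of the cereblon ligase were expressed too. Its adaptor Ddb1 was at 880.1 ± 31.7 TPM and the RING subunit Rbx1 at 86.3 ± 2.59 TPM. Crbn, the receptor that gives the ligase its name, was the lowest at 18.6, 20.5, 19.5 and 19.4 TPM in replicates 1 to 4, a level near those of Ikzf3 and Ikzf5.

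Of 15 genes that studies of lymphocytes have reported as bound or controlled by Ikaros factors, 7 were expressed, and the median was 1.29 TPM. That share is close to the one over all coding genes, of which 10274 were expressed, while 21732 genes had a coding transcript. Cd4, the coreceptor of helper T cells, stood at 611 ± 25.4 TPM and Myc, a driver of growth, at 543 ± 23.5 TPM. Those near 0 included Igll1, a part of the precursor B cell receptor, at 0.112 ± 0.113 TPM. Il2, the T cell growth factor that Ikaros and Eos are known to repress, is named here after its values were seen. It held 18.3, 13.5, 13.3 and 15.1 TPM in replicates 1 to 4, so all libraries had some Il2 transcripts, with replicate 1 highest. All partner genes and 10 of the 15 targets entered the edgeR test between libraries, and no gene among those tested passed at an adjusted p below 0.05. At an unadjusted p below 0.05, 0, 1, 0 and 2 of the 10 targets passed in replicates 1 to 4. The shares of all genes at that threshold are those given above for each library. Among the partner lists, the median log2 difference of the 11 BAF subunits was 0.101 in replicate 1 and -0.129 in replicate 2. Over all genes tested it was -0.005 and -0.004, and in the other partner lists it lay between -0.09 and 0.084 in these libraries. The levels of the targets say nothing of binding or control.

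**Figure D4:**
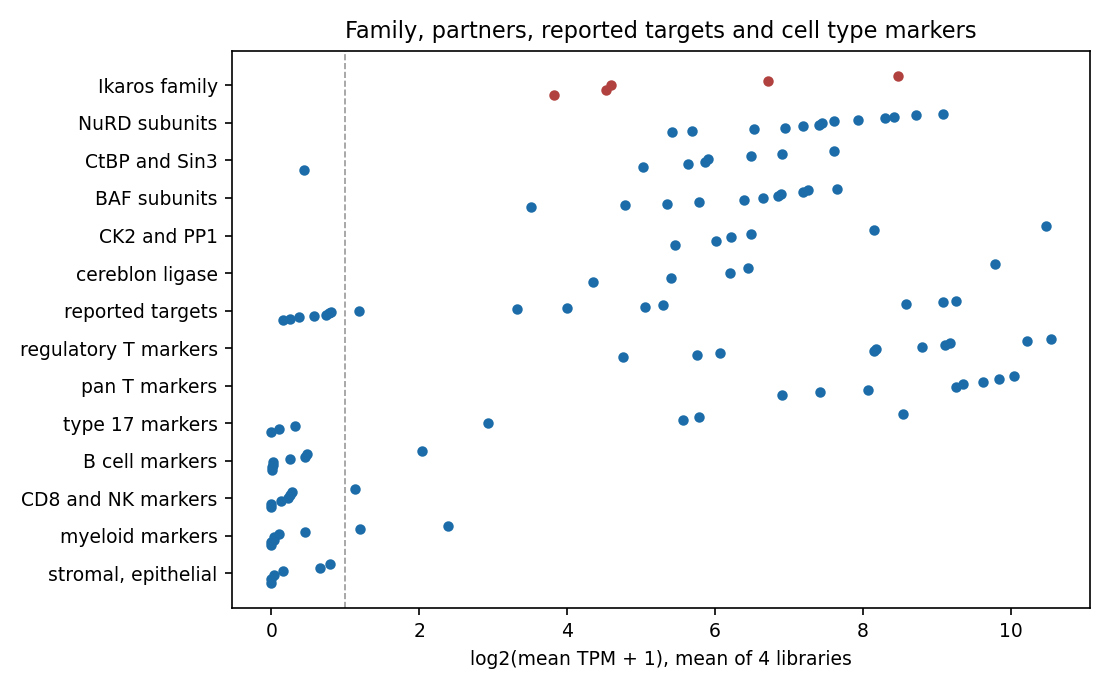
Mean level of each gene over the 4 libraries as log2(TPM + 1), 1 row per gene list, with a dashed line at 1 TPM and the Ikaros family in red. The partner lists lie to the right of the line except Ctbp2, the reported targets fall on both sides, and most markers of B, CD8 and NK, myeloid, stromal and epithelial cells lie to the left.

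The label of the cells was checked against markers. All 10 regulatory T markers were expressed, Il2ra at 1488 ± 19.4, Tnfrsf4 at 1190 ± 15.4 and Gpr83, the lowest, at 26.1 ± 3.7 TPM, and so were all 8 general T cell markers, from Trac at 1053 ± 43.9 and Thy1 at 919 ± 17.9 to Cd3g at 119 ± 4.19 TPM. Foxp3 was at 289 ± 23.5 TPM. Relative to it, Ikzf1 stood at 1.23 ± 0.0902, Ikzf4 at 0.362 ± 0.0332 and Ikzf2 at 0.0461 ± 0.00915 within libraries, by summed exon length. Foxp3 shares 6.69% of its exon bases with Flicr on the same strand, where fragments are not counted. Of 7 markers of type 17 helper cells, 4 were also expressed, among them Ccr6 at 371 ± 27.3 and Il17f at 46.6 ± 8.03 TPM. Il17a, also expressed, stood at 6.60 ± 1.31 TPM. Il17f and Il17a are named here after their values were seen. Il22 had 0 counts, which allows up to 0.214 TPM in the library with the highest limit. In bulk RNA, transcripts from the cells that hold Foxp3 and from other cells cannot be told apart.

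Markers of other cell types were low. The 8 B cell markers summed to 3.59 to 4.35 TPM, of which Cd79b gave 3.11 ± 0.466 and Cd79a 0.395 ± 0.124 TPM. The sum was lowest in replicate 4, although Cd79a was highest in that library, at 0.547 TPM. The 7 CD8 and NK markers summed to 1.52 to 2.20 TPM, lowest in replicate 1. Eomes led at 1.20 ± 0.351 TPM, followed by Klrb1c at 0.216 ± 0.156 TPM, with Gzmk and Ncr1 at 0 counts. The 8 myeloid markers summed to 5.38 to 6.58 TPM, lowest in replicate 4. Cd68 was at 4.23 ± 0.990 and Adgre1 at 1.30 ± 0.328 TPM, with Lyz2 and S100a8 at 0. Itgam, of the same list and named here for its overlap, shares 68.67% of its exon bases with Gm49368 on the same strand. Fragments there are not counted, so its low value says little. The 6 stromal and epithelial markers summed to 1.03 to 2.37 TPM, lowest in replicate 1. Epcam led at 0.727 ± 0.311 TPM, followed by Krt18 at 0.575 ± 0.299 TPM, and Krt8 and Col3a1 had 0 counts.

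The genes closest to each member in level and pattern were found by the largest absolute difference in log2(TPM + 1) over the 4 libraries, among expressed coding genes outside the family. The 3 nearest to Ikzf1 were Raly, Anxa6 and Lrrc59, at differences of 0.03 to 0.04. For Ikzf4 they were Gm49322, Sart1 and Gga1 at 0.03 to 0.05, for Ikzf3 Zfyve1, Mgme1 and Txndc9 at 0.03 to 0.04, and for Ikzf5 Adcy3, Nit1 and Abr at 0.03 to 0.04. Ikzf2 had the most distant neighbours, Crabp2, Atxn7l2 and Zfp747, at 0.10 to 0.13. Within a difference of 0.2 there were 24 genes for Ikzf2, against 113 for Ikzf1, 203 for Ikzf4, 319 for Ikzf5 and 374 for Ikzf3.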

How the data were processed

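The deposited values are raw counts, which the authors made with featureCounts 1.4.6-p4 from mm10 alignments and GENCODE M13, per the file headers. Fragments were counted per gene over its exons, in reverse-stranded mode and only when both ends had aligned, and multi-mapping fragments were not requested. The assay label says total RNA, and the linked library protocol is named for polyadenylated RNA. The design allowed for deposited TPM, but the files hold counts, so TPM and FPKM were derived from them with the deposited exon lengths.

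The libraries held 43821767, 58696937, 73819468 and 52005209 counts in replicates 1 to 4. The 224 genes without a symbol in GENCODE M21 held at most 0.00963% of the counts. Between libraries, the chi-square statistic per degree of freedom was at least 11.1, so no pair agreed within sampling noise. Libraries were compared with edgeR 4.0.16 (R 4.3.3), by its quasi-likelihood test after TMM scaling and filterByExpr, with Benjamini-Hochberg adjusted p-values called at 0.05. The single library in each test has no replicate and was taken to vary as the others do. The scripts were tested on simulated data. A count of 0 allows up to 3 counts, and such limits and the counting errors cover counting error only.

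Named genes are the members, the 2 highest and the lowest of each list, the nearest neighbours on the chromosome and the 3 genes nearest in level, of which 2 list genes are not reported here. The members, the 14 lists and the tests were chosen with earlier results of these data known. Alternatives were other lengths, units, pseudocounts, thresholds, scalings and filters, DESeq2 1.42.0, and leaving out each replicate.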

Additional observations from a re-analysis of the deposited data

Results flagged for a closer look

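Of 46 genes and levels checked for a library far from the other 3, 4 stood out, where chance gives about 1 in 20. Ikzf1 was at 341.8 TPM in replicate 3, with a gap to the nearest library of 0.868 of its whole range, although edgeR gave a log2 difference of only -0.06 for that library (SE 0.0830, adjusted p = 1). Csnk2b, the regulatory subunit of casein kinase 2, was at 302.4 TPM in replicate 4, above the rest, with a gap of 0.872 of its range. Myc was at 508.0 TPM in replicate 2, below the rest, with a gap of 0.945 of its range. Ccr6, a chemokine receptor, was at 411.1 TPM in replicate 1, above the rest, with a gap of 0.835 of its range. None of the 4 was called by edgeR between libraries.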

How the results depend on the processing

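The levels and shares of the members moved with the gene length. Leaving out each replicate moved them by less than their SD in all 20 levels and 20 shares recomputed. With 4 libraries, leaving out a replicate cannot move a mean by a full SD, so that outcome was fixed in advance. With the transcript of the longest coding sequence as length, Ikzf1 to Ikzf5 stood at 297.5, 42.1, 37.8, 115 and 19.5 TPM, and made up 58.1, 8.21, 7.38, 22.5 and 3.80% of the family. Ikzf5 minus Ikzf2 then reversed to -1.06 on the log2 scale. With the counted part of the longest coding transcript, an alternative chosen after seeing the data, Ikzf1, Ikzf3, Ikzf4 and Ikzf5 stood at 283, 39.5, 74.5 and 20.4 TPM, and at 66.0, 9.20, 17.3 and 4.74% of the family. Undivided counts gave shares of 70.5, 5.27, 6.97, 12.8 and 4.35% for Ikzf1 to Ikzf5, so that Helios was above Pegasus in the mean. In replicate 4 Helios was at 35.05 and Pegasus at 35.11 CPM. In FPKM the levels were 103, 3.84, 6.72, 30.3 and 6.43 for Ikzf1 to Ikzf5. Over nuclear coding genes only, Ikzf1, Ikzf3, Ikzf4 and Ikzf5 were at 379, 24.7, 111 and 23.6 TPM. The other 15 alternative comparisons of neighbouring members, none of which used undivided counts, kept their direction, as did the 16 without a replicate. For pairs with the same order in every library, leaving out a replicate could not have reversed it.

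No member was called between libraries in the alternatives that gave an adjusted p, 58 with other settings and 60 without a replicate. DESeq2 gave none for Ikzf2 and Ikzf5 in replicate 2. At an unadjusted p below 0.05 the number of calls changed with the filter and with DESeq2, for the members and for all genes. The lowest adjusted p was 0.0678, for Ikzf2 in replicate 1 without replicate 2. For Ikzf2 in replicate 4 the lowest was 0.206 and the highest 1. The number of genes called in all was less stable, and the cause was not tested. Without a filter 105, 60, 35 and 16 genes were called in replicates 1 to 4, against 9, 0, 3 and 0 with it, and DESeq2 called 18, 28 and 8 in replicates 1 to 3 and 0 in replicate 4. For replicate 1, leaving out replicate 2, 3 or 4 gave 112, 23 and 341 calls. For replicate 2, leaving out replicate 1, 3 or 4 gave 52, 3 and 9. For replicate 3, leaving out replicate 1, 2 or 4 gave 16, 17 and 21, and for replicate 4, leaving out replicate 1, 2 or 3 gave 2, 2 and 9. At a threshold of 5 TPM, or of 1 FPKM, 0 B cell and 0 myeloid markers were expressed, against 1 and 2 at 1 TPM. No paired analysis was possible because all libraries belong to 1 group. With 4 libraries the exact test cannot pass 0.05.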
